A study of Mus musculus with 6 samples.

Results

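Gabra2, B3gnt3, Apod, Ly6a and the long noncoding RNA gene 5430421F17Rik are 5 of the 55487 gene IDs in the deposited count table of rib cage RNA-Seq from mouse embryos. They were selected on their levels in these libraries: all 3 mutant embryos lay at similar levels above all 3 controls, unlike genes of skin and liver, whose mutant levels were far apart. Their difference between mutants and controls is therefore given as a description, with no test. All 5 were found by symbol, each under a single ID, and all 5 were among the 26596 genes with at least 10 counts over the 6 libraries.

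The libraries came from rib cages at 16.5 days post coitum (dpc). The 3 controls, embryos E420, E434 and E435, are labelled wild type, and the 3 mutants, embryos E423, E433 and E440, are labelled Col2-cre;Foxc1-/-;Foxc2-/-. In the mutants the forkhead transcription factor genes Foxc1 and Foxc2, flanked by loxP sites, were deleted by the Col2-cre transgene, whose activity the study saw in the limb in chondrocytes of the growth plate, in the perichondrium and in the primary ossification centre. Deletion in the other cell types of the rib cage was not measured here. The Cre line was on a C57B6 background and the floxed alleles on Black Swiss, and the animals compared were littermates. The mothers were homozygous for the floxed alleles of Foxc1 and Foxc2, so littermate controls carry floxed alleles despite the wild type label. For its skeletal stains the paper describes controls as embryos without Col2-cre. The labels of the sequenced controls do not mention Cre. If these controls also lacked it, presence of the transgene and the deletion cannot be told apart here. The litter, sex and strain makeup of each embryo are not given in the labels, and strain makeup and genotype cannot be told apart here. The study chose the rib cage because tissues other than skeleton could be dissected off it. RNA of all cells left in the dissected rib cage was sequenced together, so fewer cells of a type and less RNA per cell cannot be told apart.

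The 5 genes have no known common pathway. Gabra2 encodes the alpha 2 subunit of the GABA-A receptor, a chloride channel made of several subunits that is best known at inhibitory synapses. B3gnt3 encodes a Golgi enzyme that extends core 1 O-glycans with N-acetylglucosamine, and is known in epithelia and in the vessels through which lymphocytes enter lymph nodes. Apod encodes apolipoprotein D, a secreted lipocalin that carries small lipids such as arachidonic acid. It is made by fibroblasts and by Schwann cells after nerve injury. Ly6a encodes Sca-1, a protein held to the cell surface by a lipid anchor and used to sort stem cells, endothelial cells and stromal progenitors. No function is known here for 5430421F17Rik. Gabra2 and Ly6a are both genes whose levels are known to differ between inbred mouse strains.

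The genes lie at 5 places in the genome (GRCm38), all on the minus strand. Gabra2 (ENSMUSG00000000560.9) spans chr5:70957597-71095849, B3gnt3 (ENSMUSG00000031803.8) chr8:71690756-71701789 and Apod (ENSMUSG00000022548.14) chr16:31296192-31314808. Ly6a (ENSMUSG00000075602.10) spans chr15:74994877-74998031 and 5430421F17Rik (ENSMUSG00000110140.1) chr8:25302650-25306270. Their exons cover 7640, 3055, 2577, 1205 and 3187 bases, and 0 of these bases are shared with exons of another annotated gene. Counts that did not use strand therefore do not mix any of the 5 with an annotated overlapping exon.

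RefSeq gives a promoter window for Gabra2, B3gnt3 and Apod, from 250 bases before to 50 bases after the gene's start (GRCm38.p6, minus strand, written 5′ to 3′). The windows are chr5:71095800-71096099, chr8:71701751-71702050 and chr16:31314759-31315058. They are shown because these genes were higher together in every mutant while their start regions are made of very different sequence. Capitals mark each CG dinucleotide.
Gabra2: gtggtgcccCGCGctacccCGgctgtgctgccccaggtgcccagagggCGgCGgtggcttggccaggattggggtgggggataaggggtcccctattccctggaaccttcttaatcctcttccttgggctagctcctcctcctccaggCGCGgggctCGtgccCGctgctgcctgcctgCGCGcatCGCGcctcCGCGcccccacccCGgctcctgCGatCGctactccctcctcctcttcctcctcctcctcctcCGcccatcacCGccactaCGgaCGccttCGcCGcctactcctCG
B3gnt3: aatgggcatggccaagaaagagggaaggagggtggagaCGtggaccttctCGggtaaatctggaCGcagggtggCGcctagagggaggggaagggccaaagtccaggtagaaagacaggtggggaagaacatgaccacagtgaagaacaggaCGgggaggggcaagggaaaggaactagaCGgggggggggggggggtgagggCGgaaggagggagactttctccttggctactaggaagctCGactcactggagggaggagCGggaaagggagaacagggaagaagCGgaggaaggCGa
Apod: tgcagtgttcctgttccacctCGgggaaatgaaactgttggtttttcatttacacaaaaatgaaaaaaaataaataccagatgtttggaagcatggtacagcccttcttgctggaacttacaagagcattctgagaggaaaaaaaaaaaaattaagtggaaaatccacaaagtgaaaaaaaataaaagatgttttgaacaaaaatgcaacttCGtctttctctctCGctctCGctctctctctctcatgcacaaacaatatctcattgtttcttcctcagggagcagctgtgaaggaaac
The Gabra2 window is 70.0% G or C and holds 25 CG dinucleotides, the B3gnt3 window is 60.3% G or C with 11, and the Apod window is 37.3% G or C with 4. Over the 32851 windows in the same table, the median was 52.7% G or C and 7 CG dinucleotides, so Gabra2 and B3gnt3 lie above the median on both measures and Apod below it. Forkhead proteins are known to bind TGTTTAC. That core was searched on both strands along with the related core TGTTTAT and with a further variant, spelled TATTTAC, and none of the 3 windows holds any of them. The share of all windows with a match was 3.65% for TGTTTAC, 4.6% for TGTTTAT and 3.04% for TATTTAC, and 10.6% held at least 1 of them. Other spellings of the core were not searched. The absence of these 3 spellings says nothing about other forkhead cores inside the windows or about sites outside 300 bases.

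The libraries were not equally far from each other. On the expected fragment counts, the chi-square per gene averaged 5.42 between controls E420 and E435 and 2.27 between mutants E423 and E440, where sampling noise alone gives about 1, and 39.9 to 209 for the other 13 pairs. Control E434 and mutant E433 stood apart through cartilage genes: Col2a1 was at 14400 and 4930 CPM (counts scaled by library total and TMM factor) there and at 162 to 631 CPM in the other 4 libraries. Mutant E433 was also the only library with high Xist, at 1130 CPM against at most 3.11 CPM elsewhere, and with high Alb, the liver albumin gene, at 320 CPM against at most 22.5 CPM. Ddx3y, a gene of the Y chromosome, was at 0.278 CPM in E433 and at 92.7 to 123 CPM in every other library. By Xist and Ddx3y, E433 had the pattern of a female embryo and every other library that of a male. Sex was thus not balanced between the groups, and its part in the levels was not tested. Library totals ran from 37853988 to 47794799 counts, so that 1 count equals 0.0206 to 0.0255 CPM. Foxc1 was at 23.1, 36.9 and 24.2 CPM in E420, E434 and E435 against 3.56, 9.61 and 3.51 CPM in E423, E433 and E440, and Foxc2 at 1.99, 4.83 and 3.22 CPM against 0.649, 1.14 and 0.737 CPM. Each deleted gene was lower in every mutant than in every control, with the highest mutant level in E433.

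Levels below are given in the order E420, E434, E435 for controls and E423, E433, E440 for mutants. The mutant set thus holds the close libraries E423 and E440 and the distant library E433, and an even level across mutants means that E433 resembled the other two.

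Gabra2 showed the widest separation of the 5. It had 39, 36 and 39 counts in the controls and 228, 169 and 157 in the mutants. Scaled to library size, these were 0.993, 0.794 and 0.804 CPM against 5.48, 3.92 and 3.40 CPM, or 0.864 ± 0.112 (SD, n = 3) against 4.27 ± 1.08 CPM (SD, n = 3). The lowest mutant lay 1.73 above the highest control on the log2 scale, and the log2 fold change was 2.30, a 4.94-fold difference. Gabra2 was also the least even of the 5 among mutants, with a log2 range of 0.68. The range lay between the close libraries, with E423 the highest and E440 the lowest, and E433 between them.

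5430421F17Rik was the most even. Its counts were 34, 47 and 42 in the controls and 124, 135 and 138 in the mutants. In CPM the controls were at 0.865, 1.04 and 0.866 and the mutants at 2.98, 3.13 and 2.99, giving means of 0.923 ± 0.0989 (SD, n = 3) and 3.04 ± 0.0842 (SD, n = 3). The 3 mutants spanned 0.07 on the log2 scale, while the gap to the highest control was 1.48, 21.3 times that range. The log2 fold change was 1.71 (3.28-fold).

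B3gnt3 was the gene with the lowest counts, at 20, 27 and 32 in the controls and 79, 85 and 116 in the mutants. The levels were 0.509, 0.596 and 0.660 CPM against 1.90, 1.97 and 2.51 CPM, with means of 0.588 ± 0.0756 (SD, n = 3) and 2.13 ± 0.335 CPM (SD, n = 3). E423 and E433 were nearly equal and E440 was higher, with a log2 range of 0.40 over the mutants and a gap of 1.46. The log2 fold change was 1.85 (3.60-fold).

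Ly6a had 232, 321 and 387 counts in the controls and 755, 676 and 789 in the mutants. This corresponded to 5.90, 7.08 and 7.98 CPM against 18.2, 15.7 and 17.1 CPM, or 6.99 ± 1.04 (SD, n = 3) against 17 ± 1.24 CPM (SD, n = 3). Ly6a varied more among controls than among mutants, with log2 ranges of 0.43 and 0.21. The gap was 0.97 and the log2 fold change 1.28 (2.43-fold).

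Apod had 252, 261 and 290 counts in the controls and 553, 535 and 527 in the mutants. The levels were 6.41, 5.76 and 5.98 CPM against 13.3, 12.4 and 11.4 CPM, with means of 6.05 ± 0.334 (SD, n = 3) and 12.4 ± 0.941 CPM (SD, n = 3). Apod showed the smallest separation of the 5, a log2 fold change of 1.03 (2.05-fold) and a gap of 0.83, with a mutant log2 range of 0.22. Its control levels were the tightest of the 5, with a coefficient of variation of 5.51%.

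**Figure D1:**
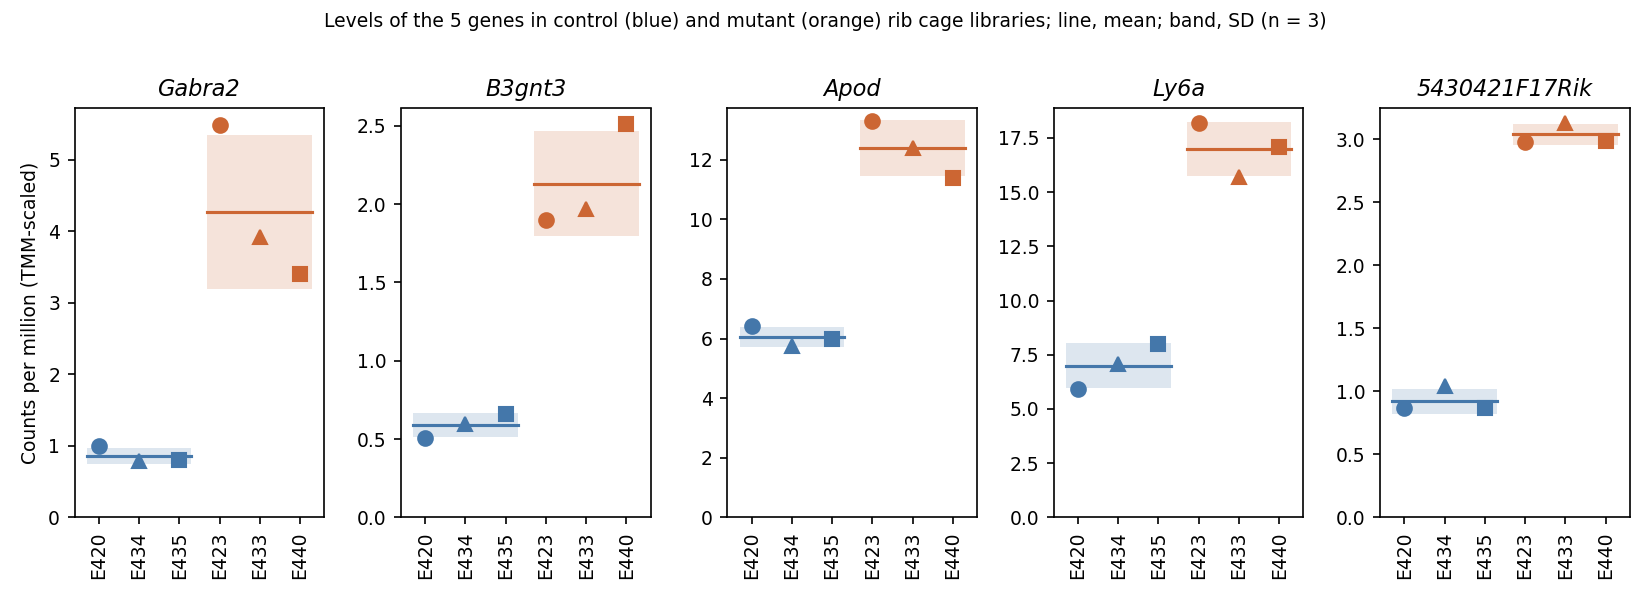
Level of each gene in CPM (vertical axes from 0, a separate scale per gene) in the 6 libraries, controls in blue and mutants in orange, with the group mean as a line and the SD as a band (n = 3). In every panel the 3 mutants sit above the 3 controls. The log2 fold changes between the groups run from 1.03 (Apod) to 2.30 (Gabra2).

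Per length, Ly6a and Apod were the more abundant of the 5 transcripts. In the deposited TPM values, which correct for transcript length, Ly6a averaged 14.1 ± 2.30 in controls and 32.7 ± 1.16 in mutants, and Apod 8.58 ± 0.598 and 18.5 ± 1.98 (SD, n = 3 each). 5430421F17Rik averaged 0.540 ± 0.0608 and 1.66 ± 0.168 TPM, Gabra2 0.343 ± 0.0586 and 1.39 ± 0.281 TPM, and B3gnt3 0.297 ± 0.0603 and 0.980 ± 0.115 TPM (SD, n = 3 each). In the mutants the ranges of 5430421F17Rik and Gabra2 overlapped, 1.55 to 1.85 against 1.09 to 1.65 TPM, and those of Gabra2 and B3gnt3 met at 1.09 TPM, so only Ly6a and Apod were separated from their neighbours in the order. All 5 were genes of middling level: their mean CPM stood between the 40.2 percentile (B3gnt3) and the 60.2 percentile (Ly6a) of the genes tested.

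The same separation was present in the second pipeline of the authors, STAR and RSEM, which counts fragments. Each of the 5 genes had 1.94 to 2.06 featureCounts counts per RSEM fragment, close to the 1.95 to 1.96 of whole libraries, as counting each end of a pair separately gives. The gap between groups on these fragments was 1.83 for Gabra2, 1.24 for B3gnt3, 0.89 for Apod, 0.93 for Ly6a and 1.47 for 5430421F17Rik on the log2 scale. The mutant range was 0.65 for Gabra2 and at most 0.34 for the other 4.

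The 5 genes were chosen for similar levels in the mutants, unlike skin and liver genes, so the following values describe that choice. Mutant E433 differed from the mean of E423 and E440 by -0.14 on the log2 scale for Gabra2, -0.15 for B3gnt3, 0.01 for Apod, -0.17 for Ly6a and 0.07 for 5430421F17Rik. The same quantity was -11.63 for Flg, the filaggrin gene of skin, which was at 546, 0.116 and 481 CPM in E423, E433 and E440. It was 4.29 for Alb, -2.84 for the fat gene Adipoq and 4.86 for Col2a1. The log2 range over the 3 mutants had a median of 0.50 over all genes tested, above the range of 4 of the 5 genes and below that of Gabra2.

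**Figure D2:**
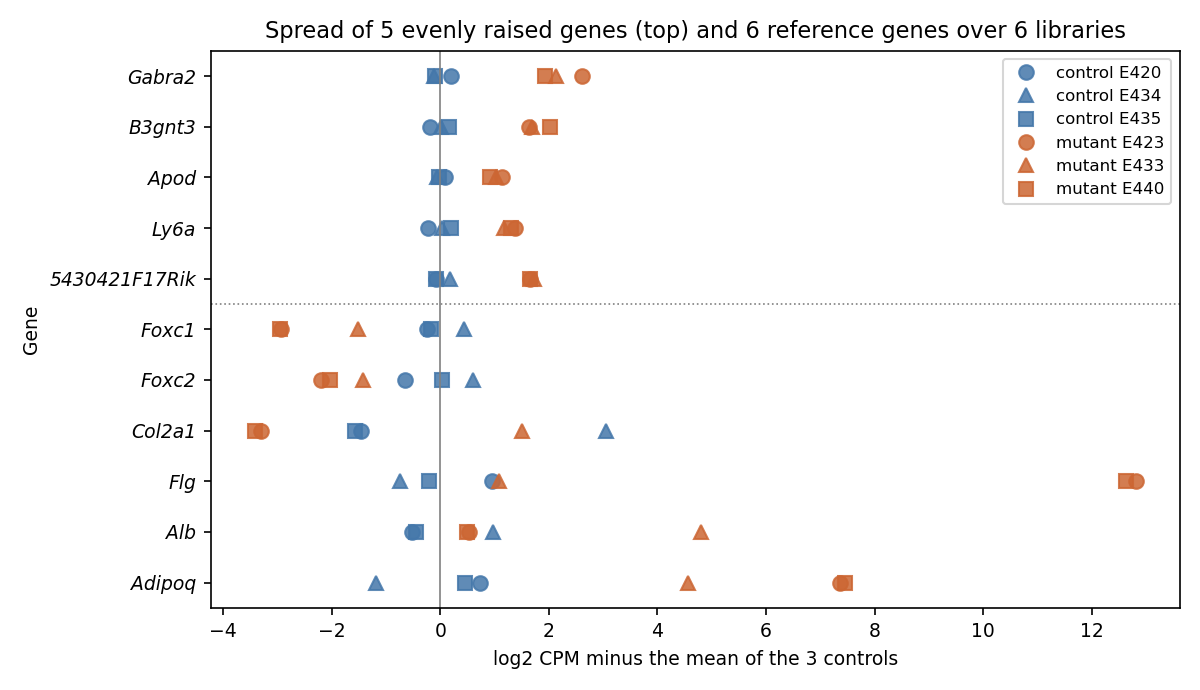
Log2 CPM of each gene minus the mean of the 3 controls (horizontal axis) for the 5 genes, above the dotted line, and 6 reference genes, with a marker per library. The 3 mutants of 5430421F17Rik lie within 0.07 of each other, while those of Flg and Adipoq are split between E433 and the other two.

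The difference between mutants and controls was also read by setting E433 against E434, the Col2a1-high libraries, and the other 2 mutants against the other 2 controls. Cartilage content was not matched by this: the log2 difference of Col2a1 itself was -1.55 and -1.84 in these comparisons. E433 and E434 also differed in Xist and Alb. Skin content was not matched either: keratinocyte marker genes, listed below, summed to 3520 CPM in E433 and 17 CPM in E434. In the other comparison they summed to 29600 and 29700 CPM in E423 and E440 against 6060 and 6880 CPM in E420 and E435. For Gabra2 the log2 difference was 2.24 within the Col2a1-high libraries and 2.22 within the other 4. The same values were 1.65 and 1.84 for B3gnt3, 1.10 and 0.99 for Apod, 1.14 and 1.35 for Ly6a, and 1.55 and 1.73 for 5430421F17Rik. The values are descriptions, since each Col2a1-high group is a single library. The direction of these differences was fixed by the selection, which required every mutant above every control. Gabra2 had the largest difference of the 5 and Apod the smallest in both sets.

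Over all genes, 9 of 26596 (0.0338%) were higher and 8 (0.0301%) lower in mutants past the limits set on edgeR's quasi-likelihood test, which were a log2 fold change of 1 or more either way with adjusted p below 0.1. All 5 genes were among the 9, and nothing is read from this because they were chosen on the same contrast. The others included Irs4, an adaptor of insulin signalling, and Mir6236 and Gm24187, which are annotated as microRNA genes. Gm24187 averaged 20.1 CPM in controls and 65.8 CPM in mutants by featureCounts, but 0 TPM in both groups by RSEM. Irs4 had the largest log2 fold change of the 9, 4.43, at 0.789, 0.265 and 0.453 CPM against 13.0, 6.89 and 12.6 CPM, with E433 lower than E423 and E440 by 0.89 on the log2 scale. By DESeq2's Wald test with the same limits, 355 genes (1.33%) were higher, and with a term in edgeR for the Col2a1-high libraries 695 (2.61%), in each case with all 5 included. Without any 1 library other than E433, edgeR put 0 of the 5 past the limits.

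Every mutant above every control held for 1810 genes (6.81%), and every mutant below every control for 2184 (8.21%). A criterion of even rise was set, with earlier results of these data known: the lowest mutant at least 0.5 above the highest control in log2 CPM, and that gap at least as large as the range over the 3 mutants. It was met by 169 genes (0.635%), the 5 among them as their selection requires, and the mirror criterion of an even fall by 146. On the RSEM counts 133 of 21928 genes met it, and 87 genes met it in both pipelines, all 5 included. The even rise is therefore not restricted to the 5 genes. By size of gap Gabra2 ranked 13 of 169, 5430421F17Rik 22, B3gnt3 23, Ly6a 67 and Apod 82.

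The genes with the largest gaps under this criterion were mostly genes at or near 0 CPM in controls. Adipoq and Plin1, both of adipocytes, ranked 2 and 3 with gaps of 3.85 and 3.63, but their mutant ranges were 2.88 and 3.23. Irs4 ranked 5 with a gap of 3.06 and a mutant range of 0.91. Ywhaq-ps1, Acvr1c, Retn and Sowahd also ranked above Gabra2, as did the low-count genes Gm29101, 5430419D17Rik and G630018N14Rik, which had 0 CPM in every control. Among the 169, 103 were annotated as protein coding and 18 as long intergenic noncoding RNA, the class of 5430421F17Rik.

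**Figure D3:**
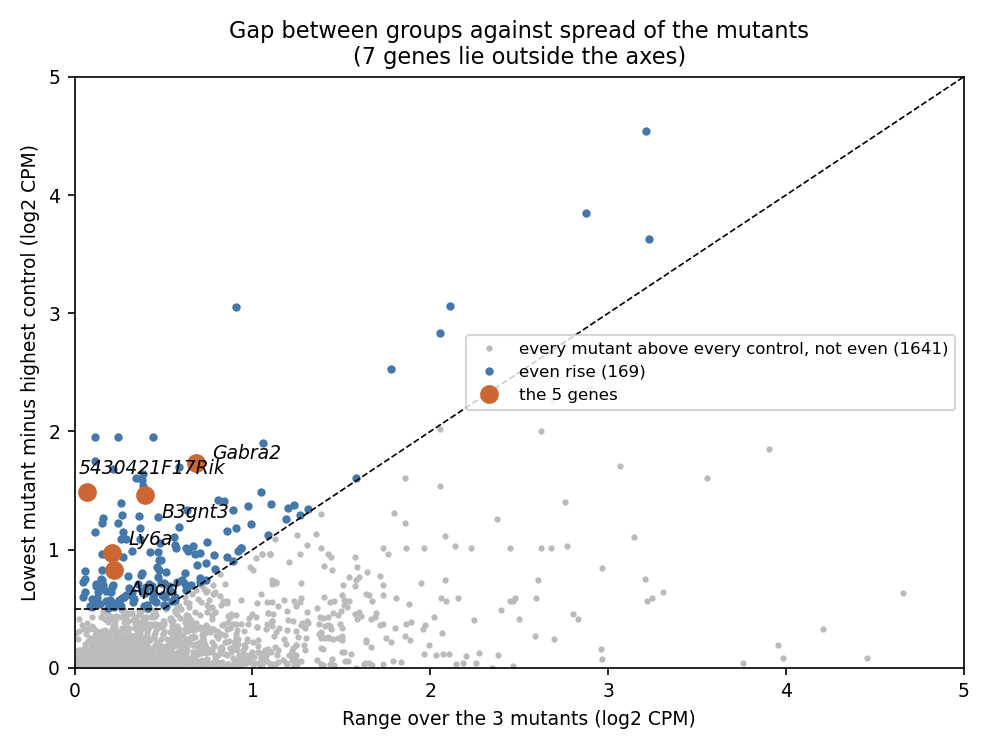
Lowest mutant minus highest control (vertical axis) against the range over the 3 mutants (horizontal axis), both in log2 CPM, for genes with every mutant above every control. The dashed line bounds the 169 even-rise genes in blue, and the 5 genes in orange lie at gaps of 0.83 to 1.73, with 5430421F17Rik at the left edge (7 genes lie outside the axes).

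For the lists of genes that follow, the shares over all genes tested were 10.6% with an unadjusted edgeR p-value under 0.05, 6.81% with every mutant above every control and 8.21% with every mutant below, and DESeq2 put 1.33% past the limits as higher and 0.459% as lower. In edgeR 0.0338% passed the limits as higher and 0.0301% as lower, so 0 in a list or among neighbours is near that share. A count of 0 in edgeR is therefore not read as a result about a list.

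Relatives of Gabra2 were read first. Of 19 GABA-A receptor subunit genes, 16 besides Gabra2 were tested. In edgeR 0 of the 16 passed the limits, against 0 by DESeq2 and 1 with an unadjusted p-value under 0.05, and their median log2 fold change was -0.09 against 0.01 over all genes tested. Gabra4, another alpha subunit, was at 4.35, 2.65 and 3.36 CPM in controls and 1.47, 3.27 and 1.71 CPM in mutants (edgeR adjusted p = 0.538). Gabra3 was at 7.76, 7.77 and 10.1 CPM against 6.25, 6.52 and 5.35 CPM (edgeR adjusted p = 0.408). Per length, Gabra2 was lower than Gabra3 in both groups, at a mean of 0.343 against 3.59 TPM in controls and 1.39 against 2.61 TPM in mutants.

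The genes of GABA supply and receptor anchoring were read in the same way. Of 11 tested, 0 passed the limits in edgeR and 0 in DESeq2, 1 had an unadjusted p-value under 0.05, and the median log2 fold change was -0.09. Gphn, which encodes the anchoring protein gephyrin, was at 22.5, 19.1 and 23.4 CPM in controls and 28.2, 22.7 and 25.6 CPM in mutants (edgeR adjusted p = 0.549). Gad1, singled out after its values were seen, makes the enzyme that produces GABA and met the even-rise criterion at very low levels, 0, 0.0882 and 0.0412 CPM against 0.241, 0.302 and 0.238 CPM (edgeR adjusted p = 0.393).

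The enzyme family of B3gnt3 followed. Of 10 genes listed, 7 besides B3gnt3 were tested, with a median log2 fold change of -0.30. In edgeR and in DESeq2 0 passed the limits, and 3 had an unadjusted p-value under 0.05. B3gnt5, which starts lacto-series glycolipids, was at 22.4, 18.4 and 19.3 CPM in controls and 10.5, 17.6 and 11.2 CPM in mutants (edgeR adjusted p = 0.429). B3gnt7, a keratan sulfate enzyme, was at 3.18, 3.51 and 3.32 CPM against 2.14, 2.25 and 2.69 CPM (edgeR adjusted p = 0.400). The groups did not overlap for either gene, and both lay lower in mutants.

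Enzymes that build and cap the O-glycans on which B3gnt3 acts were read next. All 19 were tested, 0 passed the limits in edgeR and in DESeq2, 3 had an unadjusted p-value under 0.05, and the median log2 fold change was -0.18. Of the 19, 5 had every mutant below every control and 0 above, against 8.21% and 6.81% of all genes tested. C1galt1, which makes the core 1 structure that B3gnt3 extends, was at 60.9, 63.7 and 56.5 CPM in controls and 51.1, 55.1 and 53.3 CPM in mutants (edgeR adjusted p = 0.473). Gcnt1, which branches core 1 into core 2, was at 17.3, 19.8 and 15.2 CPM against 9.96, 12.6 and 12.2 CPM (edgeR adjusted p = 0.352).

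Several relatives of Apod were high in E433 alone. Among 16 apolipoprotein and lipocalin genes tested besides Apod, the median log2 fold change was 1.13, larger than that of Apod. In edgeR 0 of them passed the limits, 0 did so by DESeq2 and 7 had an unadjusted p-value under 0.05. Apoa2, an apolipoprotein of the liver, was at 0.818, 14.1 and 1.13 CPM in the mutants and at most 0.838 CPM in controls, and Ambp and Apoh showed the same split. Apoe was at 191, 192 and 197 CPM in controls and 204, 239 and 197 CPM in mutants (edgeR adjusted p = 0.636). Ptgds, a lipocalin that also makes prostaglandin D2, was at 4.40, 3.53 and 4.68 CPM against 7.50, 5.22 and 7.98 CPM (edgeR adjusted p = 0.389), with every mutant above every control but E433 below the other mutants. 0 of the 16 met the even-rise criterion.

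Several relatives of Ly6a were high in E423 and E440. Of 27 tested members besides Ly6a, 0 passed the limits in edgeR and 3 did so by DESeq2, 7 had an unadjusted p-value under 0.05, and the median log2 fold change was 0.65. Slurp1, Lypd5 and Ly6d, which are known in skin and other stratified epithelia, were high in E423 and E440 and lower in E433: Ly6d was at 277, 60.7 and 293 CPM, against 105, 0.0441 and 108 CPM in controls. Ly6c1, a surface marker of monocytes and endothelium, was at 4.89, 6.02 and 5.11 CPM in controls and 8.27, 6.47 and 9.45 CPM in mutants (edgeR adjusted p = 0.392). Ly6e was at 53.7, 57.4 and 59.9 CPM against 64.1, 64.0 and 67.0 CPM (edgeR adjusted p = 0.445). 5 of the 27 had every mutant above every control, and 0 met the even-rise criterion.

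Ly6a is induced by interferon in many cells, and a list of interferon response genes was read beside it. Of 20 tested, 0 passed the limits in edgeR and in DESeq2, 3 had an unadjusted p-value under 0.05, and the median log2 fold change was 0.01. Of the 20, 5 had every mutant above every control and 1 every mutant below, against 6.81% and 8.21% of all genes tested. Irf7, a transcription factor of this response, was at 1.40, 0.971 and 1.55 CPM in controls and 1.59, 1.81 and 1.63 CPM in mutants (edgeR adjusted p = 0.603). For Irf7 every mutant was above every control. Rsad2 lay in the other direction, at 13.8, 24.6 and 13.4 CPM against 8.25, 13.7 and 7.71 CPM (edgeR adjusted p = 0.465).

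**Figure D4:**
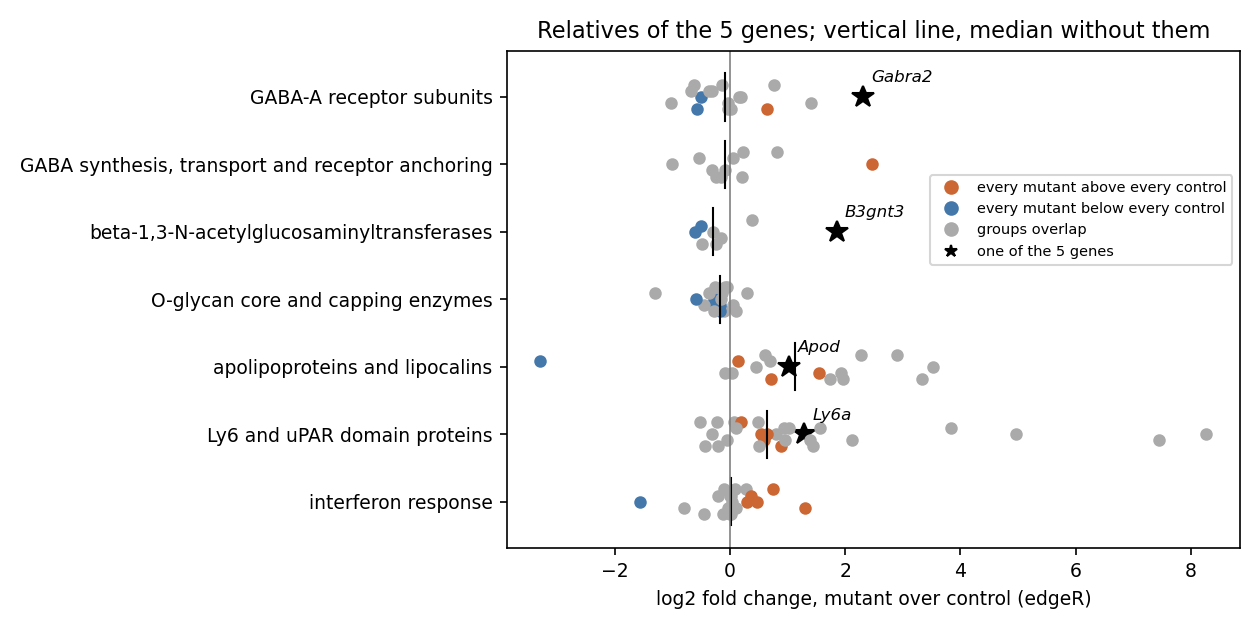
Log2 fold change of mutant over control (horizontal axis, edgeR) for the tested genes of 7 lists of relatives and pathway genes, with a circle per gene, a star for Gabra2, B3gnt3, Apod and Ly6a, and a vertical line at the median of the others. The starred genes were selected as higher in every mutant, so nothing is read from their distance to unselected relatives. The family medians are -0.09 for Gabra2, -0.30 for B3gnt3 and 1.13 for Apod, whose family holds several genes high in E433 alone.

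The cell types in which the 5 genes are known were followed by marker lists. Stromal progenitor fibroblasts, a known source of Ly6a and Apod, had 12 of 12 markers tested, with a median log2 fold change of 0.26. 7 had every mutant above every control and 1 every mutant below, and 0 passed the limits in edgeR and in DESeq2, against 6 with an unadjusted p-value under 0.05. Pi16, which marks adventitial fibroblasts, was at 19.1, 19.9 and 20.6 CPM in controls and 36.2, 35.3 and 34.7 CPM in mutants, with an edgeR adjusted p of 0.0775 but a log2 fold change of 0.83, short of the limit. Thy1 was at 22.9, 25.0 and 21.7 CPM against 37.2, 40.0 and 32.7 CPM (edgeR adjusted p = 0.172), and Clec3b at 89.2, 74.5 and 85.7 CPM against 133, 120 and 126 CPM (edgeR adjusted p = 0.155). Others did not go the same way: Pdgfra was at 179, 220 and 164 CPM against 129, 183 and 123 CPM (edgeR adjusted p = 0.531). The summed level of the list was 2350, 2520 and 2300 CPM in controls and 2280, 2770 and 2270 CPM in mutants, so the groups overlapped. The part of these cells in the levels of Ly6a and Apod was not tested.

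Endothelial cells and some leukocytes also carry Ly6a. Of 12 endothelial markers tested, 0 had every mutant above every control, the median log2 fold change was -0.09, and the summed level was 578 to 739 CPM in controls and 537 to 678 CPM in mutants. Of 10 leukocyte markers, 5 had every mutant below every control and 0 above, the median was -0.23, and the sum was 212 to 220 CPM in controls and 177 to 182 CPM in mutants. In both lists 0 genes passed the limits in edgeR and in DESeq2, with 1 and 5 genes at an unadjusted p-value under 0.05. Neurons, the known site of Gabra2, had 10 of 10 markers tested with a median of -0.14 and sums of 20.9 to 30.5 CPM in controls and 26.4 to 29.7 CPM in mutants, with 0 past the limits in edgeR and in DESeq2 and 1 at an unadjusted p-value under 0.05.

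Schwann cells, a known source of Apod, had 8 of 8 markers tested with a median log2 fold change of 0.20 and sums of 149 to 185 CPM in controls and 183 to 193 CPM in mutants. In edgeR 0 passed the limits and 1 did so by DESeq2, against 1 with an unadjusted p-value under 0.05. Sox10, which defines the lineage, was at 8.81, 8.52 and 7.26 CPM in controls and 11.4, 8.28 and 12.4 CPM in mutants (edgeR adjusted p = 0.514). Simple and secretory epithelia, where B3gnt3 is known, summed to 362, 25.3 and 364 CPM in controls and 392, 137 and 387 CPM in mutants. The list was lowest in E434 and next lowest in E433, and in edgeR and in DESeq2 0 of its 12 genes passed the limits, with 1 at an unadjusted p-value under 0.05. The part of epithelia in the level of B3gnt3 was not tested.

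The lists of skin, liver, fat, muscle and cartilage differed widely between libraries of the same group. Keratinocyte markers summed to 6060, 17 and 6880 CPM in controls and 29600, 3520 and 29700 CPM in mutants, and chondrocyte markers to 2100, 27900 and 2000 CPM against 690, 10300 and 668 CPM. Hepatocyte markers summed to 59.5, 91.5 and 61.6 CPM against 66.7, 806 and 65.6 CPM, and skeletal muscle markers to 13900, 23100 and 14100 CPM against 31700, 18100 and 30900 CPM. In edgeR 0 genes of these 4 lists passed the limits, and 0 to 4 genes of each had an unadjusted p-value under 0.05. By DESeq2 1 keratinocyte, 1 hepatocyte and 1 skeletal muscle marker passed as higher and 0 chondrocyte markers. Adipocyte markers summed to 213, 178 and 218 CPM against 841, 275 and 857 CPM. Of their 12 genes 0 passed the limits in edgeR, 10 did so by DESeq2, 9 had every mutant above every control and 3 met the even-rise criterion. Osteoblast and osteocyte markers summed to 11500 to 16600 CPM in controls and 8000 to 8390 CPM in mutants, without overlap. 10 of the 12 had every mutant below every control, and Phex passed the limits in edgeR with a log2 fold change of -1.68 (adjusted p = 0.0775), while 7 of the 12 did so as lower by DESeq2.

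Genes around the 5 were read for shared differences. Within 250 kb of their gene bodies, 0 of the tested neighbours passed the limits in edgeR. Around B3gnt3, 27 neighbours had a median log2 fold change of 0.04 and 6 had an unadjusted p-value under 0.05, and the values were 8, 0.03 and 2 around Apod, against 10.6% of all genes tested at that p-value. Jak3, 181 bases from B3gnt3, was at 10.3, 9.82 and 10.8 CPM in controls and 9.43, 8.68 and 10 CPM in mutants (edgeR adjusted p = 0.701). On the other side Fcho1 was at 7.81, 0.816 and 9.11 CPM against 27.0, 5.08 and 27.7 CPM (edgeR adjusted p = 0.549), high in E423 and E440 and lower in E433 and E434. The tested gene nearest to Apod was the long noncoding RNA gene Gm49767, 4296 bases away, singled out after its values were seen, at 0.331, 0.397 and 0.598 CPM in controls and 0.842, 0.812 and 1.08 CPM in mutants (edgeR adjusted p = 0.389). Its log2 fold change was 1.03, and that of Gm41442, further along, was 0.62, with every mutant above every control for both. The nearest coding neighbours of Apod, Ppp1r2 and Bdh1, had log2 fold changes of 0.08 and 0.02, and Tacc1 and Fgfr1 beside 5430421F17Rik of -0.24 and -0.25. Around 5430421F17Rik, 8 neighbours were tested and 0 had an unadjusted p-value under 0.05. Around Gabra2 no neighbour had 10 counts.

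Ly6a lies in a cluster of related genes. Its 15 tested neighbours had a median log2 fold change of 0.96, 6 had every mutant above every control and 7 had an unadjusted p-value under 0.05. By DESeq2 3 neighbours in all passed the limits, 2010109I03Rik, Gml and Gml2, all of this cluster and all following E423 and E440: Gml was at 1.83, 0.0464 and 1.89 CPM in mutants and at most 0.0618 CPM in controls. The nearest coding neighbours were Ly6i, at 0.0509 to 0.165 CPM in controls and 0.186 to 0.241 CPM in mutants (edgeR adjusted p = 0.571), and Ly6c1, described above. Members of this family are similar in sequence, and with reads that map to several places left out, the counts of Ly6a and Ly6c1 are uncertain to that extent. RSEM, which shares such reads out, gave Ly6a 116, 165 and 204 fragments in controls and 385, 347 and 403 in mutants.

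Over the 6 libraries the 5 genes followed each other, with a Pearson correlation of log2 CPM between 0.936 and 0.997 for the 10 pairs. This was fixed by the selection, since all have the same split between groups. Within the 3 mutants the correlation ran from -0.94 for B3gnt3 and Apod to 0.96 for Gabra2 and Apod, with 3 points that include the close pair E423 and E440. The small differences among mutants were thus not shared by the 5.

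The tested genes with a mean of at least 1 CPM whose pattern was most like each of the 5 were named by the same correlation over the 6 libraries, as a description. They were Sorl1, Grik3 and Hipk4 for Gabra2 (0.991, 0.987 and 0.986), and Tmem131l, Ftsj1 and Gm14221 for B3gnt3 (0.996, 0.990 and 0.988). Apod was followed by Dhrs11, Hipk4 and Grik3 (0.991, 0.990 and 0.988), Ly6a by Zdhhc7, Gm26532 and Gstm1 (0.997, 0.991 and 0.991), and 5430421F17Rik by Gm26982, Pi16 and Rph3al (0.991, 0.991 and 0.989). Many of these differ little between groups: Zdhhc7 was at 40.7, 42.0 and 42.4 CPM in controls and 47.1, 46.9 and 46.8 CPM in mutants. Grik3, which encodes a kainate receptor subunit, differed more, at 0.713, 0.728 and 0.783 CPM against 2.07, 1.72 and 1.78 CPM, and met the even-rise criterion. Between 48 and 60 of the 16563 genes compared had a correlation over 0.95 with each of the 5.

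The size of the 5 differences was compared between settings, while their direction was fixed by the selection of genes with every mutant above every control. The log2 fold change of Gabra2 ran from 2.08 to 2.44, that of B3gnt3 from 1.65 to 1.94, that of 5430421F17Rik from 1.55 to 1.81, that of Ly6a from 1.14 to 1.38 and that of Apod from 0.98 to 1.10.

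**Figure D5:**
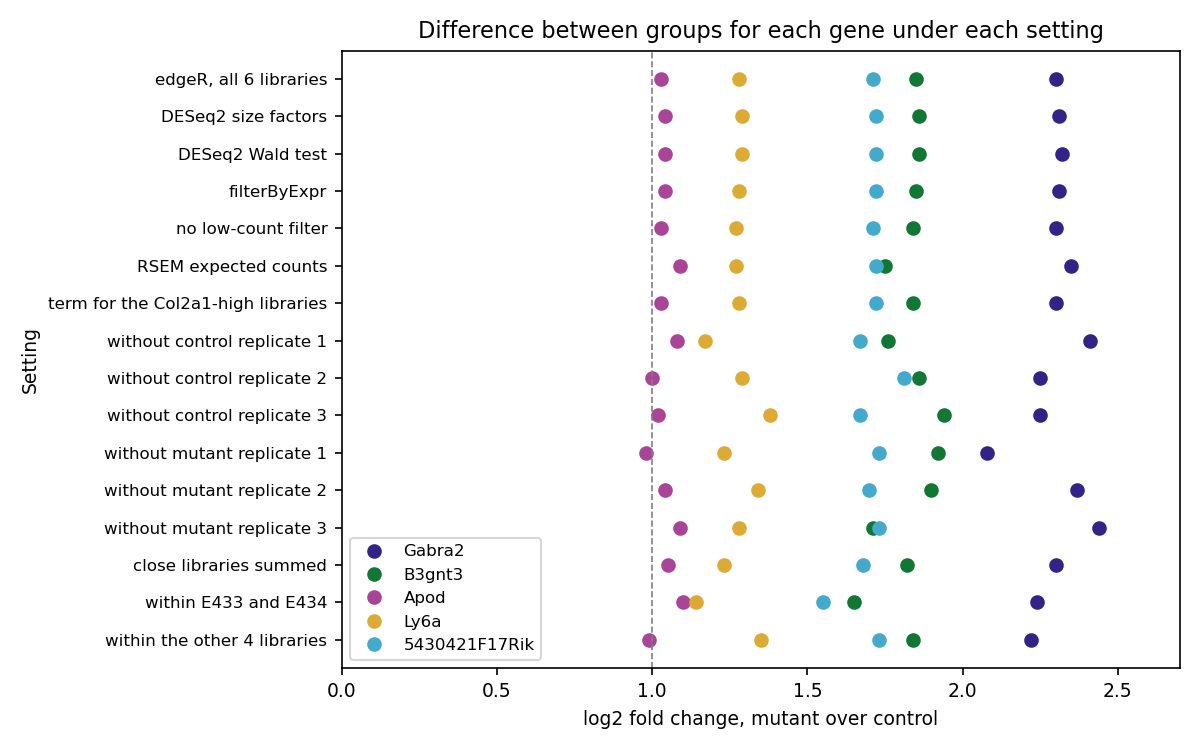
Log2 fold change of mutant over control (horizontal axis) of the 5 genes under each setting (vertical axis), where replicates 1, 2 and 3 are E420, E434 and E435 for controls and E423, E433 and E440 for mutants, and the dashed line is the limit of 1. The order of Gabra2, Ly6a and Apod stays the same throughout, while B3gnt3 and 5430421F17Rik lie close together.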

How the data were processed

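RNA of dissected rib cages (3 control and 3 mutant embryos) was analysed from the deposited tables. The authors aligned reads to GRCm38 with HISAT2 2.1.0 and counted read ends per gene with featureCounts 1.6.0, and these raw counts were used for all tests. Through STAR 2.7.6 and RSEM 1.2.31 the authors also deposited expected counts, rounded here to whole numbers, and TPM. Tables of the authors' DESeq2 1.26.0 comparison hold fold changes, p-values and 12 columns of per-sample values, none of which was used. Symbols were found for 55141 of 55487 gene IDs.

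Genes with at least 10 counts were fitted with edgeR 4.0.16 (R 4.3.3) by the quasi-likelihood test with TMM scaling, without covariates, and Benjamini-Hochberg adjustment over 26596 genes. The script was checked on simulated data. CPM used TMM-scaled totals, and log2 CPM a prior count of 2. Alternatives were DESeq2 1.42.0 (Wald test and size factors), filterByExpr or no filter on low counts, RSEM counts, a term for the Col2a1-high libraries, a stricter adjusted p-value, leaving out each library and, added after the data were seen, summing the close libraries. Nothing says that the libraries of a group are from separate litters, and p-values measure only the spread between these samples.

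The 5 genes and all lists were chosen with earlier results of these data known. From each list, genes past the limits and the 3 with the largest change at a mean of at least 1 CPM could be named, with the nearest coding neighbours, the 3 most alike genes for each of the 5, and the 10 even-rise genes with the largest gap. Irs4, Mir6236, Gm24187, Xist, Ddx3y, C1galt1, Gad1, Apoe, Ptgds, Ly6e, Pdgfra, Sox10, Gm49767 and Gm41442 were named after their values were seen. Some items are not reported here.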

Additional observations from a re-analysis of the deposited data

How the results depend on the processing

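The direction of the 5 differences was fixed by their selection and says nothing about stability. The 5 were past edgeR's limits with DESeq2 size factors, filterByExpr, no low-count filter, the Col2a1 term and without E433, and past the same limits by DESeq2. With RSEM counts 3 were (Gabra2, Apod and 5430421F17Rik), and 0 were without E420, E434, E435, E423 or E440 or with the close libraries summed. The log2 fold change of B3gnt3 was 1.65 and that of 5430421F17Rik 1.55 within E433 and E434. Over all genes, 9 were higher and 8 lower in edgeR, against 355 and 122 by DESeq2, 22 and 15 without a filter, 5 and 5 with RSEM counts, 695 and 198 with the Col2a1 term, 0 and 0 with the close libraries summed, where 324 and 203 had an unadjusted p-value under 0.05 and also passed the fold limit, and 0 and 0 at an adjusted p under 0.01, where 804 and 299 did so. Leaving out 1 library gave 0 to 734 higher and 0 to 353 lower, the most without E433. Of the list genes, 0 were higher and 1 lower in edgeR, against 17 and 7 by DESeq2, 3 and 3 without a filter, 29 and 22 with the Col2a1 term, 0 lower with the close libraries summed, and 0 to 20 higher and 0 to 12 lower without 1 library. Neighbours past the limits were 0, against 3 by DESeq2, 5 with the Col2a1 term and 0 to 4 without 1 library. The cause of these changes was not tested. No paired analysis was possible because the labels do not give the litter of each embryo, although the study compared littermates, and the replicate numbers were given in accession order. With 20 to 47 counts in controls, B3gnt3, Gabra2 and 5430421F17Rik are limited most by depth.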

Other observations

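Genes outside the lists met the even-rise criterion with levels close across the mutants, and are given as values chosen after the data were seen. Shox2, a homeobox gene of limb and skeletal development, was at 6.46, 4.30 and 6.45 CPM in controls and 15.5, 14.7 and 14.3 CPM in mutants, and Twist2, a repressor of osteoblast differentiation, at 7.28, 3.42 and 7.03 CPM against 14.4, 12.9 and 13.2 CPM. In edgeR their adjusted p-values were 0.145 and 0.343, above the limit, while by DESeq2 they were 5.25e-10 and 0.00172.

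Lars2 and an annotated ribosomal RNA, CT010467.1, also met the criterion at high levels, at 688, 540 and 381 CPM against 1730, 1520 and 1840 CPM, and at 11100, 9970 and 7160 CPM against 20400, 18700 and 20700 CPM. Mir6236 and Gm24187, which passed the limits with the 5 genes, had the same order of control libraries, E420 above E434 above E435. Neither of these annotated microRNA genes met the even-rise criterion on the RSEM counts.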
